A study of Homo sapiens with 12 samples.

Results

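The genes described here encode the proteins of the mitochondrial ribosome. They were chosen by name, as protein-coding genes of GENCODE 29 whose symbol starts with MRPL or MRPS followed by a digit. The rule is met by 78 genes, and 77 of them were followed among the 59424 genes of each table. MRPS18B is not analysed here. MRPL45, known for anchoring the large subunit to the inner membrane, was listed at 0 in all 12 libraries, which left 76 members that were tested in both comparisons. Its transcribed pseudogene MRPL45P2 had means of 87.7 and 108 normalised counts in the 2 tables, so the level of MRPL45 cannot be read from this 0. Of the 77 members, 51 belong to the large subunit and 25 to the small subunit. MRPS36 carries the family name but is known as part of the 2-oxoglutarate dehydrogenase complex rather than of the ribosome.

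RNA-seq was performed on stable prostate cancer lines made by lentiviral transduction. In CWR22Rv1, a line derived from a prostate cancer xenograft, cells with knockdown of GALNT7 (GALNT7 KD) were compared with cells carrying Lenti-shControl (shControl), to ask what follows a lower level of this O-glycosylation enzyme. In DU145, a line derived from a prostate cancer metastasis, cells with overexpression of GALNT7 (GALNT7 OE) were compared with cells carrying the Lenti-ORF control (OE control), to ask what follows a higher level. Each of the 4 groups had 3 biological replicates. The control cells were thus transduced too, and an untransduced line is not part of either comparison. The sources used here do not say whether the replicates were separate transductions or separate cultures of 1 line, so p-values measure the spread between these libraries. Each library held 18364512 to 24356910 reads, and the 2 lines were scaled in separate tables, so no difference between the lines was tested.

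The mitochondrial ribosome translates the mRNAs of the mitochondrial genome, which all encode subunits of the respiratory chain and ATP synthase. Its RNAs are made inside the organelle, while every one of its proteins is encoded in the nucleus, translated in the cytosol and imported. Many members have a homologue in the bacterial ribosome, and the rest were acquired in the mitochondrial lineage. Promoters of such nuclear genes are known for binding the ETS factor GABP, NRF1 and YY1.

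The promoters of 5 members are shown. They were picked by value, as 3 of these genes rose strongly in GALNT7 OE cells and the others fell there. Each runs from 250 bases before to 50 bases after the start of the gene, from RefSeq on GRCh38.p14, on the strand of the gene. Capitals mark the letters CCGGAAG (the core of the ETS motif), AAGATGGC (YY1), GCGCATGC (NRF1) and CACGTG (the E-box), searched on both strands; none of the 4 overlaps another in these windows. MRPL51 is at chr12:6493213-6493512, MRPL3 at chr3:131502922-131503221, MRPS10 at chr6:42217812-42218111, MRPS25 at chr3:15065266-15065565, all on the minus strand, and MRPL41 at chr9:137551629-137551928 on the plus strand.
MRPL51: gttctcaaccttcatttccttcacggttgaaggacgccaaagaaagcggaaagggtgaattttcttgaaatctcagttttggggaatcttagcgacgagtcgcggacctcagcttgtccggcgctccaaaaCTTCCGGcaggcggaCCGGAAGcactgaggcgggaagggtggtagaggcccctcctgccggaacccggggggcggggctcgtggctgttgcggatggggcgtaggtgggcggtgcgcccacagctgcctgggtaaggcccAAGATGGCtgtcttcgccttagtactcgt
MRPL3: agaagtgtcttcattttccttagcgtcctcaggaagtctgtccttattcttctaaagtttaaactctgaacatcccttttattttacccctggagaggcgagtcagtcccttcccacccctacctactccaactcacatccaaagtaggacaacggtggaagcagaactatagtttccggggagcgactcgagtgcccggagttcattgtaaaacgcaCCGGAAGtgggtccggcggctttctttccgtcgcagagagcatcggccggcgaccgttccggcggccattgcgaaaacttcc
MRPS10: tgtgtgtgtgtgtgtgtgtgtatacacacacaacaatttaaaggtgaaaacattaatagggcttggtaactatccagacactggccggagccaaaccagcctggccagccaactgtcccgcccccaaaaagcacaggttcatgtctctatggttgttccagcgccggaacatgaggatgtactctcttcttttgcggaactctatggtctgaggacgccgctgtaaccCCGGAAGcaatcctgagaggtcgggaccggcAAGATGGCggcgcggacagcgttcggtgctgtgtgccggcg
MRPS25: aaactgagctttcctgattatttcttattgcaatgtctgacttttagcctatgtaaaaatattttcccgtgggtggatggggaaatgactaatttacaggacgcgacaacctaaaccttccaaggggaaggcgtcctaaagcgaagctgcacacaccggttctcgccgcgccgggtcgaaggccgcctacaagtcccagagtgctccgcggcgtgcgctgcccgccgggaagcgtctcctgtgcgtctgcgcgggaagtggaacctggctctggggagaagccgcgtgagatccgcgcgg
MRPL41: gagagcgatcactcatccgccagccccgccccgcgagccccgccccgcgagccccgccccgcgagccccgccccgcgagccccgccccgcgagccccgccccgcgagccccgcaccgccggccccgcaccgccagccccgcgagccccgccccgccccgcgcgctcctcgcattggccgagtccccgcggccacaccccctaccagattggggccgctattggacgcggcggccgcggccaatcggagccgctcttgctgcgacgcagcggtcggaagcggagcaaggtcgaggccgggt
MRPL51 held the ETS letters on both strands and the YY1 letters just after the start, and MRPS10 held both motifs close to its start. MRPL3 held the ETS letters alone. The windows of MRPS25 and MRPL41 held none of the 4 sets of letters. Such a match describes the letters and not a bound site. Of members not shown, MRPL19, MRPS15 and MRPL39 also held none of the 4. Their log2 fold changes in GALNT7 OE were 0.89, 0.87 and 0.86, above the 0.74 of MRPS10. MRPL22, with 0.89, held the YY1, NRF1 and E-box letters.

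Over the family, 68 members had a promoter in the RefSeq table. The ETS letters occurred in 30 of the 68 genes (44.1%), against 16.5% of 15843 protein-coding genes with promoters of the same length. The YY1 letters occurred in 20 (29.4%), against 4.66% of all. The NRF1 letters were found in 5 members (7.35%, against 4.89%) and the E-box in 9 (13.2%, against 10.9%). Both the ETS and the YY1 letters were present in 8 members, and 26 had neither.

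GALNT7 itself followed the labels. It was at 862, 1042 and 1093 normalised counts in shControl libraries and at 481, 501 and 400 in GALNT7 KD libraries, a log2 fold change of -1.11 ± 0.13 (SE, n = 3 per group; limma adjusted p = 0.0051). In DU145 it was at 1051, 928 and 913 normalised counts in OE control and at 1988, 2221 and 2334 in GALNT7 OE libraries, a log2 fold change of 1.18 ± 0.086 (limma adjusted p = 8e-05). The groups did not overlap in either line, and the exact two-sided permutation test gave p = 0.1 in each, the smallest that 3 against 3 allows. Of the 4 epithelial markers, KRT8 and KRT18 had group means of 4877 to 12979 normalised counts and CDH1 and EPCAM means of 258 to 5711. In GALNT7 KD, EPCAM (-0.71, limma adjusted p = 0.013) and KRT18 (-0.35, 0.024) were lower. In GALNT7 OE, EPCAM was higher (0.62, limma adjusted p = 0.0016) and CDH1 lower (-0.58, 0.0092). Of the 4 markers of other cell types, the leukocyte gene PTPRC had a mean below 1 in every group and the endothelial gene PECAM1 passed the filter on low counts in DU145 alone, where it was not called. The stromal genes ACTA2 and COL1A1 had means of 25.4 to 334 normalised counts, and COL1A1 was lower in GALNT7 OE (-2.01, limma adjusted p = 0.0059). The part of these cell type markers in the members' values was not tested.

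Few members differed in GALNT7 KD cells. Of the 76 members tested, 0 were higher and 2 were lower at an adjusted p under 0.05, where 5.28% of all 17906 genes tested were higher and 3.79% lower (limma on log2(normalised count + 1), with Benjamini-Hochberg adjustment). At an unadjusted p under 0.05 there were 20 members (26.3%), beside 26.1% of all genes. The median log2 fold change of members was -0.0086, beside -0.0063 over all genes, and 37 members had positive and 39 negative values, between -0.34 and 0.31. The members together took 0.540% ± 0.011 of all normalised counts in shControl and 0.541% ± 0.0060 in GALNT7 KD (SD, n = 3 each), a difference within the spread of the control libraries. All 3 KD libraries lay above all controls for 17 members (22.4%, against 16.9% of all genes) and below for 12 (15.8%, against 15.6%).

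The pair that fell were MRPL51 and MRPL11. MRPL51, a large subunit protein without a bacterial homologue, was at 4081, 4064 and 4026 normalised counts in shControl and at 3323, 3324 and 3164 in GALNT7 KD, a log2 fold change of -0.31 ± 0.044 (limma adjusted p = 0.010). The 3 KD libraries all lay below the controls by far more than replicates differed. MRPL11, which with MRPL10 and MRPL12 forms the part of the large subunit that meets the translation GTPases, was at 2056, 2143 and 1925 in shControl and at 1635, 1663 and 1636 in KD libraries. This is a log2 fold change of -0.31 ± 0.060 (limma adjusted p = 0.026), again with no overlap. Both calls were lost without shControl replicate 1 (adjusted p = 0.051 for MRPL51 and 0.098 for MRPL11) and with eBayes without a trend (0.057 and 0.075). Across all alternatives tried, adjusted p ran from 8.02e-10 to 0.057 for MRPL51 and from 9.17e-05 to 0.098 for MRPL11. Leaving out any one of shControl replicate 2 or the 3 KD libraries also lost the call of MRPL11 (adjusted p of 0.054 to 0.093).

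MRPL51 lies on chromosome 12, and genes of this chromosome were lower in KD libraries in general. Of 922 genes tested there, 202 were lower and 19 higher, with a median log2 fold change of -0.28. The other members on chromosome 12 had values of the same sign, -0.23 ± 0.065 for MRPS35 (limma adjusted p = 0.078) and -0.12 ± 0.068 for MRPL42 (0.32), and all 3 KD libraries lay below all controls for each. The 73 members on other chromosomes had a median of 0.0058. The part of chromosome 12 in the lower level of MRPL51 was not tested. MRPL11 is on chromosome 11.

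The member nearest to a rise was MRPL49, a large subunit protein that was named after its values were seen. It was at 1818, 2102 and 1801 normalised counts in shControl and 2362, 2282 and 2422 in KD, a log2 fold change of 0.31 ± 0.075 (limma adjusted p = 0.051), and it passed under 4 of 18 alternatives. The proteins next to MRPL11 on the ribosome were not called, with log2 fold changes of -0.014 ± 0.087 for MRPL10 (limma adjusted p = 0.94) and -0.11 ± 0.067 for MRPL12 (0.37).

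**Figure D1:**
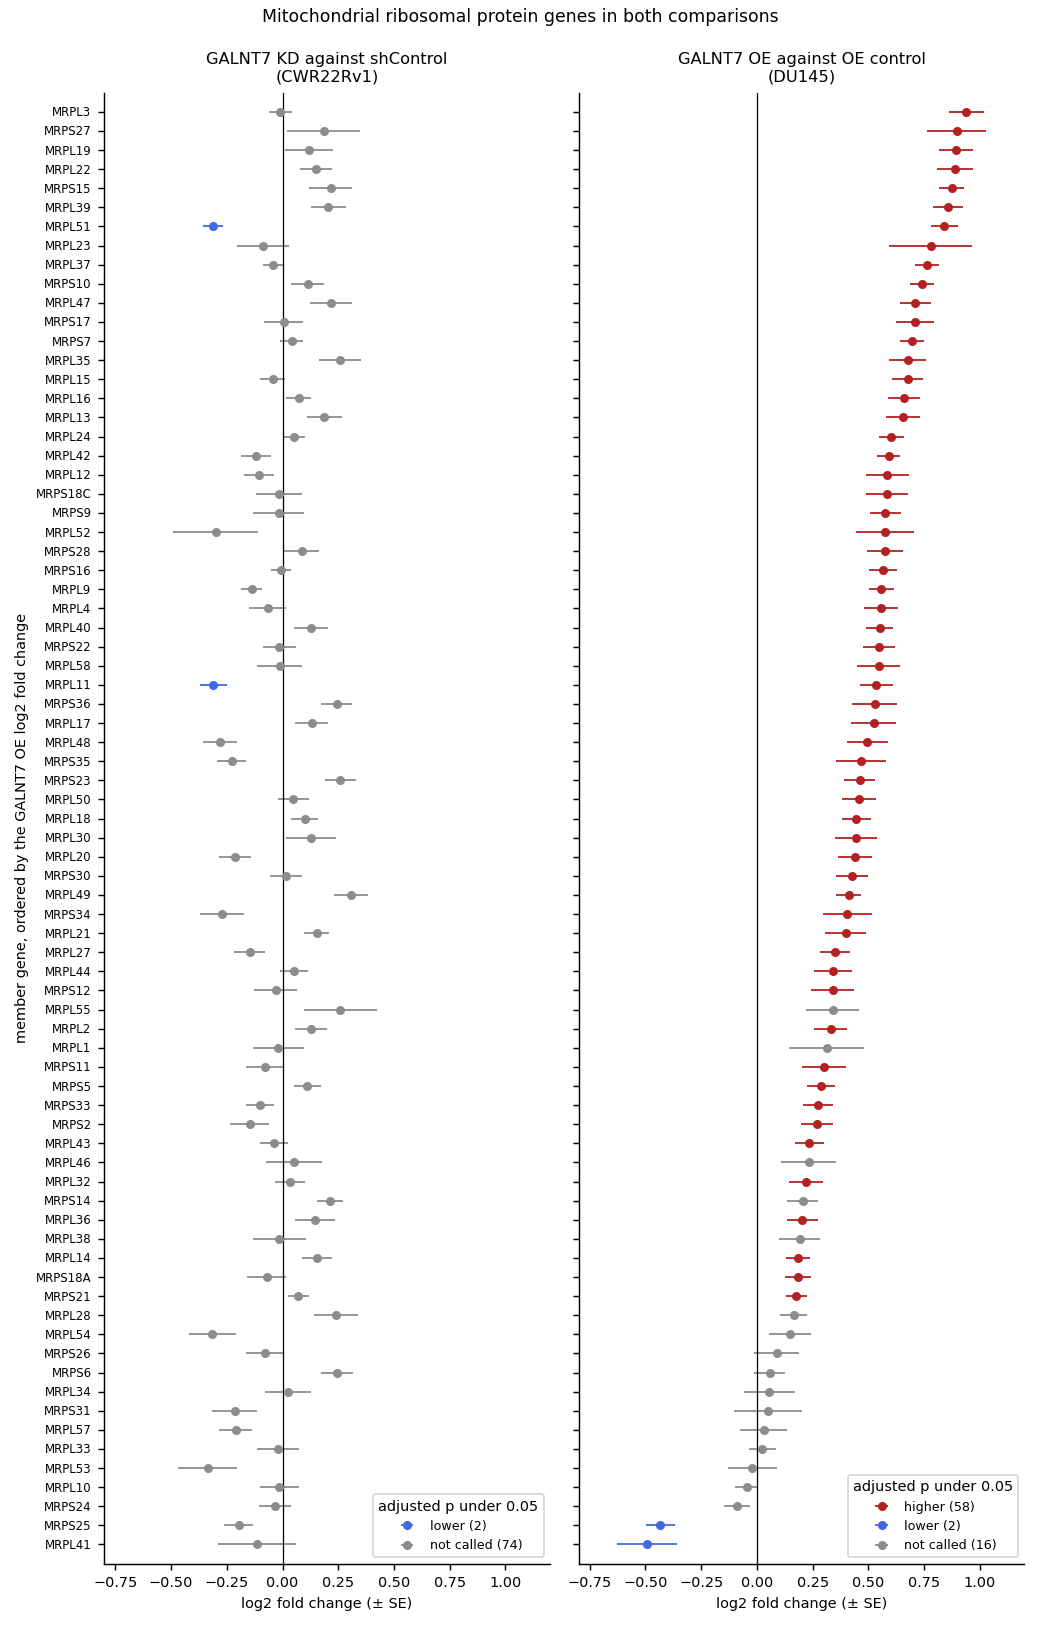
Log2 fold change (x axis, ± SE) of the 76 members tested, ordered by their value in GALNT7 OE; red and blue mark genes past a limma adjusted p of 0.05. In the knockdown 2 members were lower and 74 were not called, while 58 were higher and 2 lower in overexpression.

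GALNT7 OE cells had more mRNA of most of the family. Of 76 members, 58 rose and 2 fell (limma, adjusted p under 0.05), where 22.9% of all 18705 genes tested rose and 20.5% fell. With libraries scaled to their 75th percentile 46 members rose and 3 fell, beside 18.1% and 25.3% of all genes. Of the 58 members, 43 passed in every one of 18 fits made over all chromosomes. The median log2 fold change was 0.45, or 1.36-fold, beside -0.011 over all genes, and 71 members had positive values. All 3 OE libraries lay above all controls for 61 members (80.3%, against 28.2% of all genes) and below for 3 (3.95%, against 27.1%). The members together took 0.273% ± 0.0020 of all normalised counts in OE control and 0.367% ± 0.00050 in GALNT7 OE (SD, n = 3 each). The 3 OE libraries had median differences from the control mean of 0.42, 0.47 and 0.44 on the log2 scale, against -0.0043 to 0.0042 in the control libraries. Each OE library thus held the shift. In bulk samples a change in RNA per cell and a change in the share of some cells cannot be told apart.

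Members of both subunits rose. In the large subunit 38 of 50 members rose and 1 fell, with a median of 0.45, and in the small subunit 19 of 25 rose and 1 fell, with a median of 0.41. With scaling to the 75th percentile 32 of the 50 and 13 of the 25 rose, and after a correction for GC content and transcript length 40 and 17. Over all genes 22.9% rose and 20.5% fell, or 18.1% and 25.3% with that scaling and 23.1% and 18.2% after that correction. Among members with a bacterial homologue 38 of 47 rose and 0 fell (median 0.45), and among those without one 19 of 28 rose and 2 fell (median 0.42). No test of the difference between these classes was made. The members with the ETS letters in their promoters had 23 of 30 risen and a median of 0.44, and those without had 27 of 37 risen, 2 fallen and a median of 0.43. For the YY1 letters the counts were 16 of 19 risen (median 0.44) and 34 of 48 risen with 2 fallen (median 0.42).

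MRPL3, a core protein of the large subunit near the peptidyl transferase centre, had the highest log2 fold change of the members. It was at 1193, 1128 and 1299 normalised counts in OE control and 2372, 2148 and 2426 in GALNT7 OE, which gave 0.94 ± 0.077 (limma adjusted p = 0.00013). Each OE library was above every control by more than the whole range of either group. MRPL22, which lines the exit tunnel, was at 260, 275 and 282 in control and 491, 524 and 499 in OE libraries, a log2 fold change of 0.89 ± 0.081 (limma adjusted p = 0.00021). MRPL23, another protein at the tunnel exit, was at 70.6, 77.7 and 94.7 in control and 164, 115 and 142 in OE libraries, a log2 fold change of 0.78 ± 0.19 (limma adjusted p = 0.014). MRPL23 thus rose with a wider spread and from a low level.

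Among the other large subunit proteins, MRPL19 was at 934, 960 and 835 normalised counts in OE control and 1664, 1777 and 1622 in GALNT7 OE, a log2 fold change of 0.89 ± 0.075 (limma adjusted p = 0.00014). MRPL39, which has no bacterial homologue, was at 396, 391 and 383 in control and 708, 691 and 722 in OE libraries, a log2 fold change of 0.86 ± 0.068 (0.00011). MRPL37, also specific to mitochondria, was at 1069, 1081 and 1146 in control and 1876, 1845 and 1867 in OE libraries (0.76 ± 0.054, limma adjusted p = 7.12e-05). These 3 genes shared tight replicates and a wide gap between the groups.

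MRPL51 and MRPL11, which were lower in the knockdown, were both higher in overexpression. MRPL51 was at 967, 963 and 920 normalised counts in OE control and 1629, 1787 and 1696 in GALNT7 OE, a log2 fold change of 0.84 ± 0.061 (limma adjusted p = 7.59e-05). MRPL11 was at 809, 698 and 749 in control and 1091, 1073 and 1099 in OE libraries, a log2 fold change of 0.54 ± 0.073 (0.0013). They were the only members past the threshold in both comparisons with limma. The other members on chromosome 12 rose in DU145 too, MRPL42 by 0.59 ± 0.051 (limma adjusted p = 0.00016) and MRPS35 by 0.47 ± 0.11 (0.014), the latter not in every fit. Over all 76 members the log2 fold changes of the 2 comparisons had opposite signs for 34 (44.7%), beside 7715 of 16124 genes tested in both, and the Spearman correlation across genes was 0.20, beside 0.045 over all these genes. Genes are not independent replicates.

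**Figure D2:**
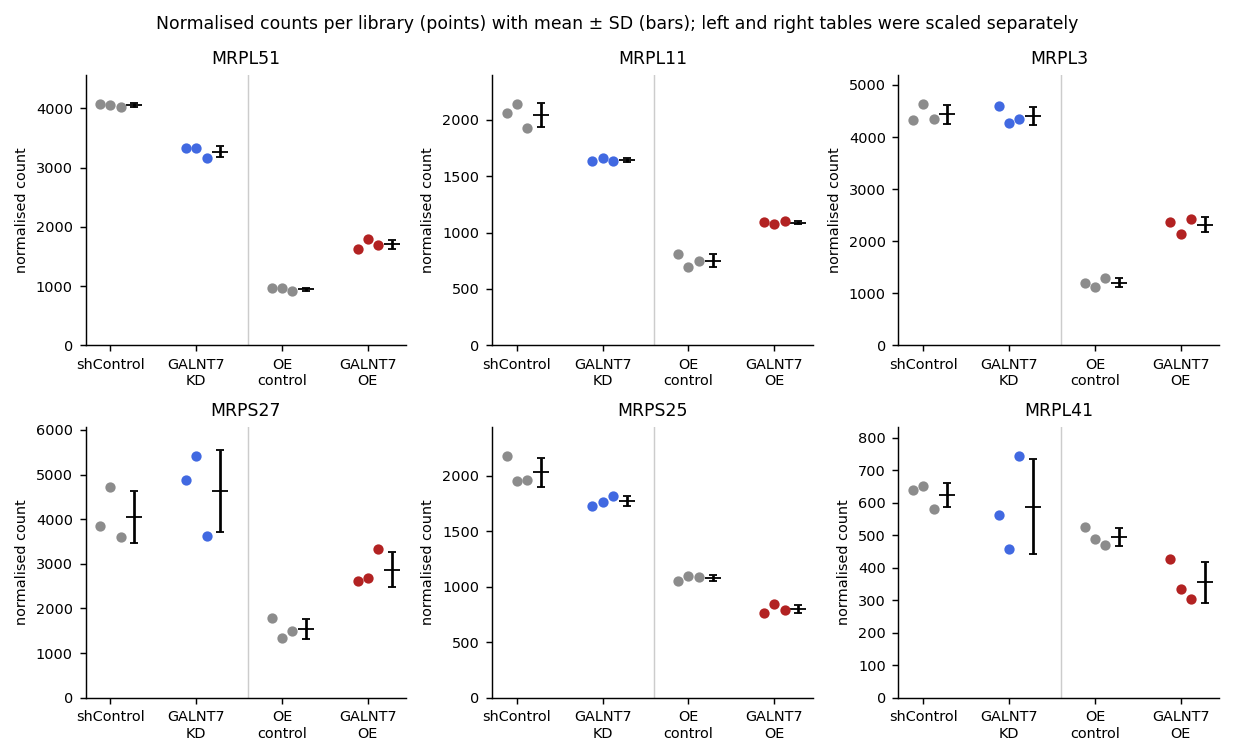
Normalised counts (y axis) of 6 members in each library (points, 3 per group) with the mean ± SD beside them; the lines are scaled separately. MRPL51 and MRPL11 were lower in GALNT7 KD and higher in GALNT7 OE, MRPL3 and MRPS27 rose in GALNT7 OE, and MRPS25 and MRPL41 fell there.

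In the small subunit, MRPS27, a protein with pentatricopeptide repeats, was at 1781, 1344 and 1505 normalised counts in OE control and 2607, 2678 and 3325 in GALNT7 OE, a log2 fold change of 0.90 ± 0.13 (limma adjusted p = 0.0017). MRPS15, a homologue of a bacterial protein that binds the small rRNA, was at 990, 973 and 930 in control and 1729, 1755 and 1819 in OE libraries, a log2 fold change of 0.87 ± 0.056 (4.64e-05). MRPS10 was at 1478, 1444 and 1420 in control and 2321, 2437 and 2506 in OE libraries, a log2 fold change of 0.74 ± 0.053 (limma adjusted p = 7.12e-05). None of these genes changed in the knockdown beyond the threshold, with log2 fold changes there of 0.18 ± 0.17, 0.22 ± 0.097 and 0.11 ± 0.073.

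The smallest rises past the threshold were those of MRPS21, MRPS18A, MRPL14, MRPL36, MRPL32, MRPL43, MRPS2 and MRPS33, with log2 fold changes of 0.18 to 0.27 and adjusted p of 0.015 to 0.049. MRPS21, a small subunit protein with a bacterial homologue, stood at 2426, 2401 and 2371 normalised counts in OE control and 2760, 2597 and 2787 in GALNT7 OE (limma adjusted p = 0.023). All 8 missed the threshold under at least 1 alternative, as did 7 members with larger rises, MRPL30, MRPL44, MRPS11, MRPS12, MRPS34, MRPS35 and MRPS36.

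Members with particular roles mostly followed the family. MRPL12, the stalk protein that recruits translation factors, rose by 0.59 ± 0.096 on the log2 scale (limma adjusted p = 0.0027). MRPL58, a peptidyl-tRNA hydrolase built into the ribosome that releases stalled chains, rose by 0.55 ± 0.096 (limma adjusted p = 0.0039). MRPL44, which has a ribonuclease III fold, rose by 0.34 ± 0.084 (0.015), and MRPS12, at the decoding site, by 0.34 ± 0.098 (limma adjusted p = 0.028). Of the paralogues related to bacterial S18, MRPS18C in the small subunit rose by 0.58 ± 0.093 (limma adjusted p = 0.0025) and MRPS18A, which sits in the large subunit, by 0.18 ± 0.059 (0.043). MRPS30, a large subunit protein in spite of its symbol, rose by 0.43 ± 0.073 (0.0033). MRPS36, of the dehydrogenase complex, was at 180, 187 and 183 normalised counts in OE control and 252, 256 and 289 in OE libraries (0.53 ± 0.10, limma adjusted p = 0.0054).

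MRPL10 was an exception to its neighbours. It was at 1279, 1270 and 1277 normalised counts in OE control and 1217, 1217 and 1272 in GALNT7 OE, a log2 fold change of -0.046 ± 0.053 (limma adjusted p = 0.52). Its ranges overlapped, while MRPL11 and MRPL12, beside it on the ribosome, rose. The 16 members that did not pass had log2 fold changes between -0.091 for MRPS24 and 0.34 for MRPL55. Exons of MRPS24 are shared with the readthrough gene URGCP-MRPS24, so its reads may have been split. It lay below all controls in all 3 OE libraries, passed as lower with scaling to the 75th percentile (-0.19, limma adjusted p = 0.038) and by quantile normalisation (0.041), and had 0.089 after the GC and length correction.

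MRPS25 and MRPL41 fell in GALNT7 OE. MRPS25, a small subunit protein without a bacterial homologue, was at 1052, 1098 and 1086 normalised counts in OE control and 764, 841 and 792 in GALNT7 OE, a log2 fold change of -0.43 ± 0.065 (limma adjusted p = 0.0018). It passed under all 18 alternatives, with adjusted p of 3.86e-07 to 0.0099. MRPL41, a large subunit protein also known for binding BCL2, was at 525, 489 and 470 in control and 425, 335 and 303 in OE libraries, a log2 fold change of -0.49 ± 0.14 (limma adjusted p = 0.024). This fall was gone after a correction for GC content and transcript length (0.0081, limma adjusted p = 0.94), and it missed the threshold without OE control replicate 1 or 2 or GALNT7 OE replicate 2 or 3 (adjusted p of 0.060 to 0.076).

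MRPL41 is the member richest in GC, at 71.9% of its coding transcripts, where the median of the family is 50.5%. Across the 76 members the log2 fold change fell with GC content, with a Spearman correlation of -0.29 in GALNT7 OE and -0.24 in GALNT7 KD, given across genes as a description. Over all genes with a GC value the correlation was -0.27 in GALNT7 OE and -0.084 in GALNT7 KD. The OE median was 0.35 for the GC-rich members and 0.51 for the GC-poor members, both above the median of all genes. Replicates of 1 group also differed along GC content. The deviation of GALNT7 OE replicate 1 from the other OE libraries had a Pearson correlation with GC of 0.68 across members, that of OE replicate 3 of -0.55, and those of GALNT7 KD replicates 2 and 3 of -0.62 and 0.67, against -0.16 to 0.24 in control libraries. With the correction 57 members rose and 1 fell in GALNT7 OE, 51 of the former being among the 58, and without GALNT7 OE replicate 1 there were 52 rises, 51 of them shared. Of all genes 23.1% rose and 18.2% fell with the correction, and 21.3% and 19.4% without that replicate. In the knockdown the correction gave 2 rises and 3 falls, where 6.38% of all genes rose and 4.98% fell, and leaving out GALNT7 KD replicate 3 gave 1 and 3 (4.07% and 3.38% of all genes).

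**Figure D3:**
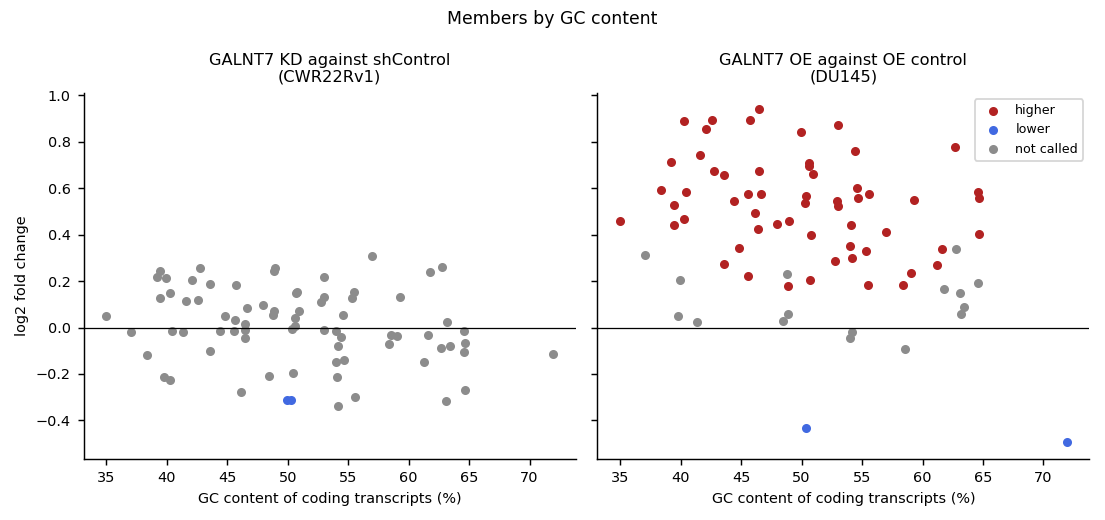
Log2 fold change (y axis) of the 76 members against the GC content of their coding transcripts (x axis, %), with colours as called by limma. Values fell towards high GC in both comparisons, with Spearman correlations of -0.24 (KD) and -0.29 (OE), and MRPL41 is the point at the far right.

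Levels within the family were compared per kilobase of transcript. In shControl cells MRPL51 was highest, at 8098 ± 56.2 normalised counts per kb, followed by MRPL24 at 5334 ± 135 and MRPL42 at 4242 ± 70.2 (SD, n = 3). These 3 differed by more than their SDs. The SDs do not cover the choice of length, here the median over coding transcripts, on which the order also depends. That length was 518 bases for MRPL49, 3098.5 for MRPL22 and 3332 for MRPL50. The lowest were MRPL22 at 193 ± 8.16, MRPL50 at 252 ± 5.55 and MRPL46 at 309 ± 35.6 per kb. In OE control cells MRPL49 at 3329 ± 192 and MRPL33 at 2929 ± 130 per kb led, ahead of MRPL42 at 2103 ± 42.0, and the lowest were MRPL22 at 87.9 ± 3.71, MRPL23 at 126 ± 19.2 and MRPS36 at 153 ± 2.82. MRPL22 came last of the tested members in both lines. MRPL33 shares exon bases with BABAM2, and an annotated pseudogene of MRPS36 had a mean of 49.6 normalised counts in the DU145 table, so their levels are less certain. In all, 16 members share exon bases with another gene on the same strand and 28 on the opposite strand, and whether the counting used strand is not given in the sources used here. In GALNT7 OE, 30 of the 40 members with shared bases on either strand rose and 28 of the 36 tested without any, beside 22.9% of all genes.

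Some members start near a gene on the other strand, which alone does not show a shared promoter. For 28 members a protein-coding gene on the other strand starts within 1000 bases in either direction. The same count over all genes was not made. In DU145, 25 such pairs with a partner outside the family were tested. These pairs hold 24 members, of which 22 were called, 21 of them risen. Of the 25 partners 12 rose and 2 fell, where 22.9% of all genes rose and 20.5% fell. Member and partner were called in the same direction in 12 pairs and in opposite directions in 0. As 21 of the 22 called members rose and 2 partners fell, there was little room for opposite pairs. No conclusion is drawn from these counts. MRPL51 starts beside NCAPD2, a condensin subunit that rose by 1.44 (limma adjusted p = 1.4e-05), and MRPL41 beside PNPLA7, which fell by 1.39 on the log2 scale (0.0050). MRPL51 and NCAPD2 also share exon bases on opposite strands, as do MRPL11 and PELI3. The part of such shared bases in the counts of MRPL51 and MRPL11 was not tested. In the knockdown NCAPD2 had -0.081 (limma adjusted p = 0.61), while MRPL51 fell. These partners were named after their values were seen.

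Other genes of mitochondrial translation were followed as lists, shown here for GALNT7 OE first. Over all genes tested 22.9% rose and 20.5% fell there, or 18.1% and 25.3% with scaling to the 75th percentile. Of the 5 ribosomal proteins with other symbols 3 rose and 0 fell (median 0.29), and 1 rose with scaling to the 75th percentile. DAP3, a GTPase of the small subunit, was at 2648, 2544 and 2646 normalised counts in OE control and 3465, 3733 and 3447 in OE libraries (0.44 ± 0.051, limma adjusted p = 0.00055). CHCHD1 (0.24, limma adjusted p = 0.026) and AURKAIP1 (0.29, 0.044) rose, while PTCD3 (0.54, 0.059) and GADD45GIP1 (0.22, 0.055) did not pass.

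Of 26 assembly and RNA modification factors 14 rose and 1 fell (53.8% and 3.85%, median 0.32), beside 22.9% and 20.5% of all genes. The highest was MALSU1, a factor of large subunit assembly, at 484, 517 and 498 normalised counts in control and 931, 915 and 902 in OE libraries (0.87 ± 0.065, limma adjusted p = 8.46e-05), and the one that fell was NGRN (fell by 0.20 on the log2 scale, limma adjusted p = 0.0061). Of 16 translation factors 12 rose and 0 fell (median 0.52), with SLIRP, a partner of the mRNA-stabilising protein LRPPRC, at 0.93 ± 0.085 (limma adjusted p = 0.00020) and the initiation factor MTIF2 at 0.85 ± 0.11 (0.0010). Of 5 genes of mitochondrial transcription 4 rose (median 0.48), among them TFAM (0.46, limma adjusted p = 0.00053) and TFB2M (0.57, 0.00094).

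Among 8 tested regulators of nuclear genes for mitochondria 5 rose and 1 fell in GALNT7 OE, beside 22.9% and 20.5% of all genes. GABPB1, a subunit of GABP, was at 423, 609 and 541 normalised counts in OE control and 1081, 917 and 904 in GALNT7 OE (0.89 ± 0.15, limma adjusted p = 0.0028). PPRC1 (0.57), NRF1 (0.52), YY1 (0.50) and GABPA (0.30) rose as well, with limma adjusted p of 0.00014 to 0.0067, and MYC fell by 0.28 on the log2 scale (0.0081). After the GC and length correction 5 of the 8 rose and 0 fell, so the fall of MYC was not called there. Of all genes 23.1% rose and 18.2% fell with that correction. In the knockdown GABPB1 was at 1254, 1350 and 1302 in shControl and 969, 797 and 965 in KD libraries, a log2 fold change of -0.52 ± 0.094 (limma adjusted p = 0.021). GABPB1 thus had the opposite sign in the 2 comparisons. In the main fit it was the only one of the 8 regulators called in the knockdown, where 7 of the 8 had negative values. With scaling to the 75th percentile 2 of the 8 were lower there, beside 4.24% of all genes. After the GC and length correction 3 were lower, beside 4.98% of all genes. The part of GABPB1 in the members' values was not tested.

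The mRNAs of the respiratory chain and ATP synthase diverged by the genome that encodes them. Of 77 nuclear-encoded subunits of the respiratory chain and ATP synthase 61 rose and 1 fell in GALNT7 OE (median 0.47), ATP5MC1 having the highest value (1.05, limma adjusted p = 2.78e-05) and NDUFB7 being the one that fell (by 0.90 on the log2 scale, 0.0021). Of the 13 mRNAs of the mitochondrial genome 0 rose and 7 fell, or 4 by quantile normalisation, with a median of -0.83 and negative values for all 13. Of all genes 22.9% rose and 20.5% fell in GALNT7 OE, or 22% and 19.8% by quantile normalisation. MT-CO1 was at 198935, 197044 and 244085 normalised counts in OE control and 105211, 73349 and 126461 in OE libraries (-1.10 ± 0.19, limma adjusted p = 0.0037). The mitochondrial mRNAs also varied widely between replicates, shControl replicate 2 having 38800 normalised counts of MT-CO1 where the other shControl libraries had 94936 and 93337. In the knockdown 1 of the 13 fell, MT-ND6 (-1.08 ± 0.15, limma adjusted p = 0.0084), and the median was -0.51. There 5.28% of all genes rose and 3.79% fell.

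Of the cytosolic ribosomal protein genes 34 of 76 rose and 8 fell in GALNT7 OE (44.7% and 10.5%, median 0.091). With scaling to the 75th percentile 25 rose and 21 fell (median -0.0084). Over all genes the shares were 22.9% and 20.5%, or 18.1% and 25.3% with that scaling. All 10 proliferation genes rose, with a median of 1.78, and CDK1 was at 839, 745 and 969 normalised counts in control and 4419, 4290 and 2955 in OE libraries (2.18 ± 0.17, limma adjusted p = 0.00011). The part of proliferation in the rise of the mitochondrial ribosomal genes was not tested. In the knockdown 0 of the 10 passed (median -0.095), as did 0 of the 5 other ribosomal proteins, 0 of 26 assembly factors and 0 of 16 translation factors. TFB2M rose there (0.32 ± 0.064, limma adjusted p = 0.029). Of the cytosolic ribosomal proteins 1 rose and 8 fell in the knockdown (1.32% and 10.5%, median -0.074), beside 5.28% and 3.79% of all genes. Of the respiratory chain subunits 5 rose and 5 fell (6.49% each, median 0.051), close to those shares. With scaling to the 75th percentile 1 rose and 6 fell, beside 4.66% and 4.24% of all genes.

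**Figure D4:**
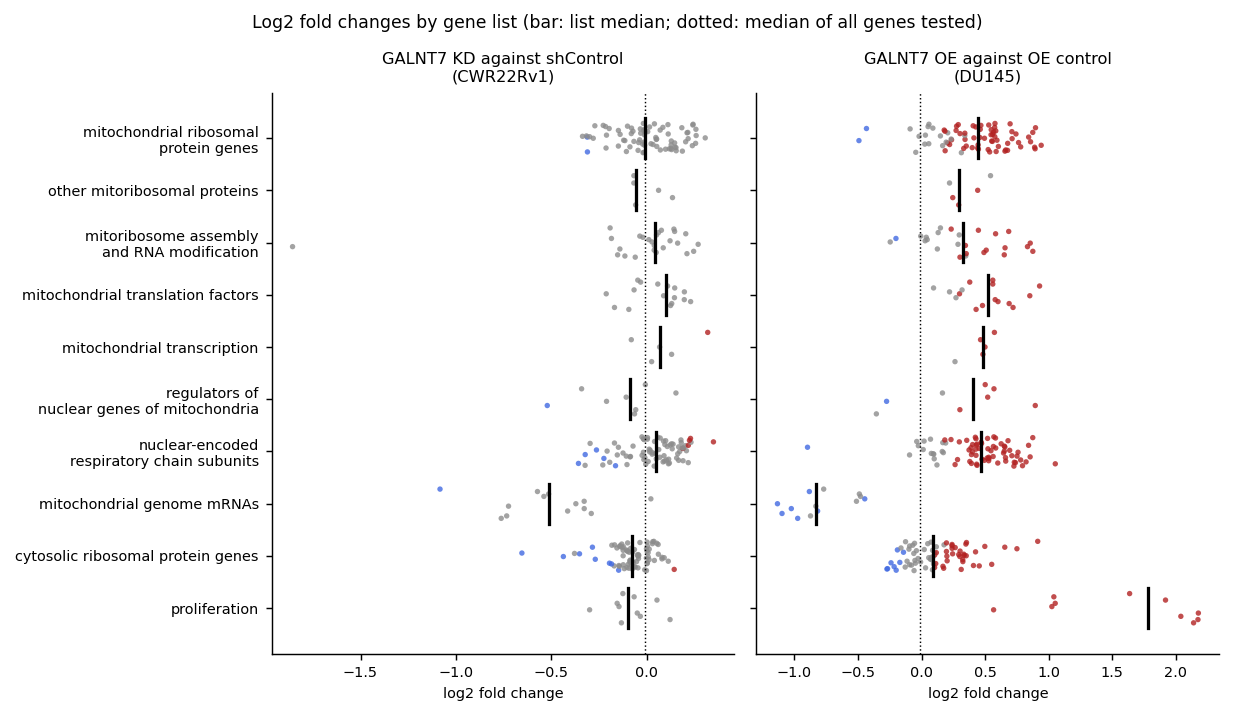
Log2 fold change (x axis) of each gene in 10 lists, red and blue where past a limma adjusted p of 0.05, with the list median (bar) and the median of all genes tested (dotted line). In GALNT7 OE the nuclear lists for mitochondrial translation and the respiratory chain had medians of 0.29 to 0.52, the mitochondrial genome mRNAs -0.83 and the proliferation genes 1.78; in GALNT7 KD the nuclear list medians lay between -0.095 and 0.099.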

How the data were processed

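The submitters' processing notes name FastQC, Salmon, DESeq2, R 3.5.3 and hg38; the annotation release is not given in the sources used here. Libraries were made with the TruSeq Stranded mRNA kit. The deposited signal is a normalised count, reads per gene divided by 1 size factor per library, made by the authors in 1 table per cell line. Dividing each library by its smallest value gave whole reads for 100% of values (tolerance 0.01), the source of the depths. Identifiers were matched to GENCODE 29 (94.4%).

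Genes with a mean of at least 5 over 6 libraries were tested with limma 3.58.1 (eBayes with trend, log2(normalised count + 1), R 4.3.3) on each table alone, calling genes at a Benjamini-Hochberg adjusted p under 0.05. Fold changes on this scale understate changes of low genes. edgeR 4.0.16 (quasi-likelihood) and DESeq2 1.42.0 were run on the recovered reads, where edgeR called 1546 genes in the knockdown and 8042 in overexpression. The limma fits, with and without a term for replicate number, and the edgeR fits were tried on simulated data with 200 changed genes. DESeq2 and the GC and length correction were not. As far fewer genes changed in the simulation than were called here, it does not show how the fits perform on these data. GC content and length are medians over coding transcripts. Precision is limited by 3 libraries per group, whose reads differed by more than counting error between replicates.

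Members and lists were chosen with earlier results of these data known. Named are the members with the 10 highest and 10 lowest changes past the threshold without overlap, those called in both comparisons, those on chromosome 12, the 3 highest and lowest per kb, members of set roles and, from the lists, genes with the largest changes. No fold changes or p-values of the authors were used.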

Additional observations from a re-analysis of the deposited data

How the results depend on the processing

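The rise of the family in GALNT7 OE held in direction under every alternative tried. The members' median log2 fold change of 0.45 was 0.35 with scaling to the 75th percentile, 0.37 by quantile normalisation, 0.41 after the GC and length correction (chosen after seeing the data) and 0.43 to 0.47 with 1 library left out. Between 41 members (at an adjusted p of 0.01, where 15.6% of all genes rose) and 59 (with a mean of at least 20, where 27.6% did) rose. Their summed level, 34.2% above control, was 27.5% above with the 75th percentile and 28.9% by quantile normalisation. The count of members lower was 1 after the GC and length correction and at an adjusted p of 0.01, and 1 to 2 with a library left out. Of all genes 12.8% to 19.4% were lower in these fits. At 0.01, 5303 of all genes were called. Of single members, MRPL33 turned from 0.025 to -0.074 (75th percentile), -0.078 (quantile), -0.17 (GC and length) and -0.012 to 0.046 with a library left out. MRPL41 turned to 0.0081 and MRPS24 to 0.089 under the GC and length correction. The cause was not tested.

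The knockdown gave fewer and less stable calls. Over all genes 1623 were called, but 996 with eBayes without a trend, 2642 with DESeq2, 392 at an adjusted p of 0.01 and 539 to 1336 with a library left out. Members lower were 0 without the trend and at 0.01, 6 with DESeq2, 1 (MRPL11) over genes outside chromosome 12, whose construction leaves out MRPL51, and 0 to 3 with a library left out. Members higher were 1 (MRPL49) with a pseudocount of 5 and with a mean of at least 20, 4 with DESeq2, 2 after the GC and length correction and 0 to 1 with a library left out. With DESeq2 8.27% of all genes were higher and 6.48% lower, and with the other alternatives just named 1.34% to 6.90% and 0.849% to 4.98%. With a library left out the members' median was 0.0044 to 0.019, and MRPL10 ranged from -0.092 to 0.031. The members' median was -0.0082 with DESeq2, -0.030 with scaling to the 75th percentile and -0.023 by quantile normalisation. After the GC and length correction it was 0.011.

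Deviations of same-numbered libraries had correlations of -0.011, 0.075 and -0.0057 in CWR22Rv1 and 0.043, 0.043 and 0.016 in DU145. In DU145 each library correlated best with the one of its own number, while in the knockdown not every library did. Correlations this weak do not decide whether replicate numbers pair the samples, and the main fits did not use them. With the replicate block 1002 genes and 1 member (MRPL51) were called in the knockdown, and 7405 genes, 51 members higher and 2 lower in overexpression. Of all genes 3.32% were then higher and 2.28% lower in the knockdown, and 20.9% and 18.7% in overexpression.

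Named members kept direction and side of the threshold in 739 of 858 comparisons with an alternative, with 98 falling below it, 11 passing it and 10 turning sign. As the tables were scaled apart, differences between the lines were not tested.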
